A study of Oryza sativa with 8 samples.

Results

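Alpha-expansins were followed in the root transcriptome of rice (Oryza sativa), as 10 loci named by locus identifier among the 55801 loci of the expression table. By the symbols of the RefSeq gene table they are EXPA1 to EXPA8, EXPA10 and EXPA16, and they make up 10 of the 29 genes to which that table gives an EXPA symbol. The 8 libraries were of roots and fell into 4 groups with 2 replicates each. D6_100X and D4_100X carried a treatment label of 100X carbon dots (CD), and D6_CK and D4_CK were labelled normal and served as their controls. The series title places the carbon dots, which are nanometre-sized carbon particles, in seed priming, that is treatment of the seed before it germinates. D6, D4 and the scale of 100X are not defined in the labels, and cultivar and age are not given there, so the names are used as names only. No label says whether replicates came from separate plants or cultures, so a p-value reflects only how these libraries scatter, which may be technical.

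Expansins are secreted proteins that loosen the plant cell wall at acidic pH without cutting its polymers, so that a cell under turgor can enlarge. Alpha-expansins act on the contacts between cellulose and xyloglucan, while beta-expansins form a second large family in the grasses. In roots, expansins are known for their part in the elongation of young cells and in the growth of root hairs. EXPA1 to EXPA4 were isolated early, in work on the fast-growing stems of deepwater rice, and EXPA4 is also known from transgenic rice in which its level altered plant height. EXPA8 is known as a root gene whose overexpression enlarged the root system, EXPA10 as an aluminium-inducible gene of the root tip, and EXPA7 from overexpression that raised salt tolerance.

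The loci are spread over 6 chromosomes. EXPA2 (LOC_Os01g60770) and EXPA8 (LOC_Os01g14650) lie on chromosome 1, and EXPA5 (LOC_Os02g51040) on chromosome 2. EXPA6 (LOC_Os03g21820) and EXPA7 (LOC_Os03g60720) lie on chromosome 3, and EXPA1 (LOC_Os04g15840) and EXPA10 (LOC_Os04g49410) on chromosome 4. EXPA3 (LOC_Os05g19570) and EXPA4 (LOC_Os05g39990) lie on chromosome 5, and EXPA16 (LOC_Os06g41700) on chromosome 6. In the RefSeq order of genes, EXPA8 stands next to EXPA9 and EXPA3 next to EXPA33, with 0 protein-coding genes between them. Gene lengths inferred from the expression values ran between 1041 bases for EXPA8 and 2163 bases for EXPA10. Reads of closely similar family members can be split between loci, which was not assessed here because no sequence was used.

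The values are FPKM, fragments scaled to gene length and to the size of the library, so they can be compared between genes per unit length. They could be turned back into whole reads, with a denominator that differed by at most 0.0098% between the 8 libraries. Whether the libraries had been reduced or scaled to a common size before FPKM were computed is not stated, so the recovered reads and their intervals describe the deposited values and may not be the sequencing depth. The libraries held 22.65 to 22.66 M recovered reads, and a value for an alpha-expansin rested on 8 to 3110 reads. The exact Poisson interval (95%, counting error only) had a half-width of 3.53% of the count for EXPA1 in D4_100X replicate 2 and of 76.9% for EXPA6 in the same library. The root label was checked with root and photosynthesis genes. Of 4 root and 11 photosynthesis genes listed, 3 of each were used, those whose symbol the RefSeq table holds at the implied place. TIP2-1, NIP2-1 and PHT1-8, which encode a vacuolar water channel, a silicon channel and a phosphate transporter of roots, stood between 40.8 and 1255 FPKM. The photosynthesis genes RBCS-C, CAB2R and RCAA1 did not exceed 1.98 FPKM in any library. These are bulk samples, in which fewer cells of a type and less RNA per cell cannot be told apart.

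Libraries of the same replicate number moved together at D4, and this touched several alpha-expansins. EXPA1 stood at 49.1 and 114 FPKM in replicates 1 and 2 of D4_100X, and at 62.4 and 96.4 FPKM in those of D4_CK. EXPA3 stood at 9.96 and 28.9 FPKM in D4_100X and at 5.33 and 18.2 FPKM in D4_CK. EXPA8 stood at 3.74 and 9.83 FPKM in D4_100X and at 4.24 and 8.49 FPKM in D4_CK. Replicate 2 was the higher library in both D4 groups for these 3 genes, by 1.20 and 0.62 (EXPA1), 1.45 and 1.6 (EXPA3) and 1.19 and 0.86 (EXPA8) on the log2(FPKM + 1) scale in D4_100X and D4_CK. They are the 3 members that differed by over 0.5 in the same direction in both groups, a difference found in 7.27% of the 22794 loci tested. Counting only the direction, 9 of the 10 members (6 higher and 3 lower in replicate 2) had the same sign in both D4 groups, against 70.7% of the tested loci, and EXPA6 was the exception. At D6 the same sign was found for 3 of 10 members, EXPA4, EXPA5 and EXPA10, against 45.1% of the loci, and 0 members differed by over 0.5 in the same direction in both D6 groups, against 0.662%. EXPA3 and EXPA8 were higher in replicate 2 of D6_100X but in replicate 1 of D6_CK.

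**Figure D1:**
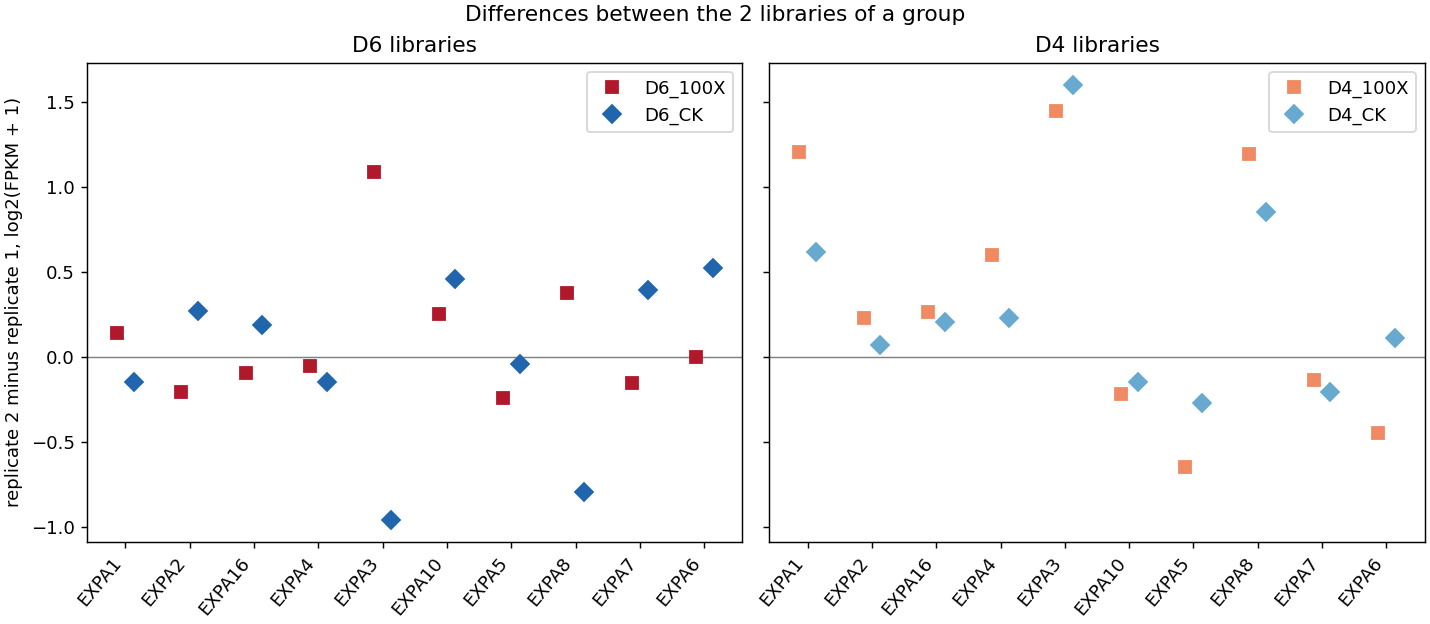
Difference between replicate 2 and replicate 1 of a group on the log2(FPKM + 1) scale for each alpha-expansin, with the D6 groups in the left panel and the D4 groups in the right; squares are carbon dot groups and diamonds controls. At D4 both groups lie on the same side of 0 for 9 of the 10 genes, with EXPA1, EXPA3 and EXPA8 farthest above it.

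Across the 8 libraries EXPA1 and EXPA2 were the most abundant members and EXPA6 the least. EXPA1 averaged 64.0 FPKM, with a range of 33.8 to 114, and EXPA2 averaged 56.4 FPKM, with a range of 42.2 to 68.9. EXPA1 was the higher of the pair in 5 of 8 libraries, so their order is not fixed. EXPA2 exceeded the next member, EXPA16, in 8 of 8 libraries without overlap. From EXPA16 (mean 29.8 FPKM) through EXPA4 (27.2), EXPA3 (21.2), EXPA10 (18.6), EXPA5 (17.0), EXPA8 (12.2) and EXPA7 (9.38) the ranges of neighbours overlapped. EXPA6 averaged 1.18 FPKM, between 0.285 and 2.28 and below 1 FPKM in the 4 D4 libraries, and its range lay under that of every other member. All 10 loci passed the filter of 1 FPKM in at least 2 libraries, EXPA6 through its D6 libraries.

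The members also differed in how steady they were. EXPA16 had the narrowest range of the 10, with a highest library 1.40 times the lowest, followed by EXPA7 at 1.48 times and EXPA2 at 1.63 times. EXPA6 and EXPA3 had the widest, at 8.0 and 6.97 times. The summed FPKM of the 10 genes was 242 ± 11.7 in D6_100X, 268 ± 7.46 in D6_CK, 258 ± 77.1 in D4_100X and 259.7 ± 41.2 in D4_CK (SD, n = 2 each). The group means of the sum lay close, but the 2 libraries of D4_100X stood at 204 and 313 FPKM. A difference of the sum between groups was not tested. The shares of single members are given next, and they also differed within groups, as for EXPA1 at 24.1% and 36.6% in D4_100X. EXPA1 held 14.7% ± 0.364 of the sum in D6_100X, 22.1% ± 0.987 in D6_CK, 30.3% ± 8.81 in D4_100X and 30.2% ± 4.46 in D4_CK (SD, n = 2 each). The share of EXPA4 was 5.95% ± 0.438 in D6_100X, 8.27% ± 0.391 in D6_CK, 14.2% ± 0.0107 in D4_100X and 13.8% ± 0.593 in D4_CK. EXPA8 held 7.61% ± 1.12 in D6_100X, 6.42% ± 2.40 in D6_CK, 2.49% ± 0.924 in D4_100X and 2.39% ± 0.776 in D4_CK. EXPA2 was the largest component in D6_100X, at 29.4% and 23.8% of the sum in replicates 1 and 2, whereas EXPA1 was the largest in all 4 D4 libraries.

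**Figure D2:**
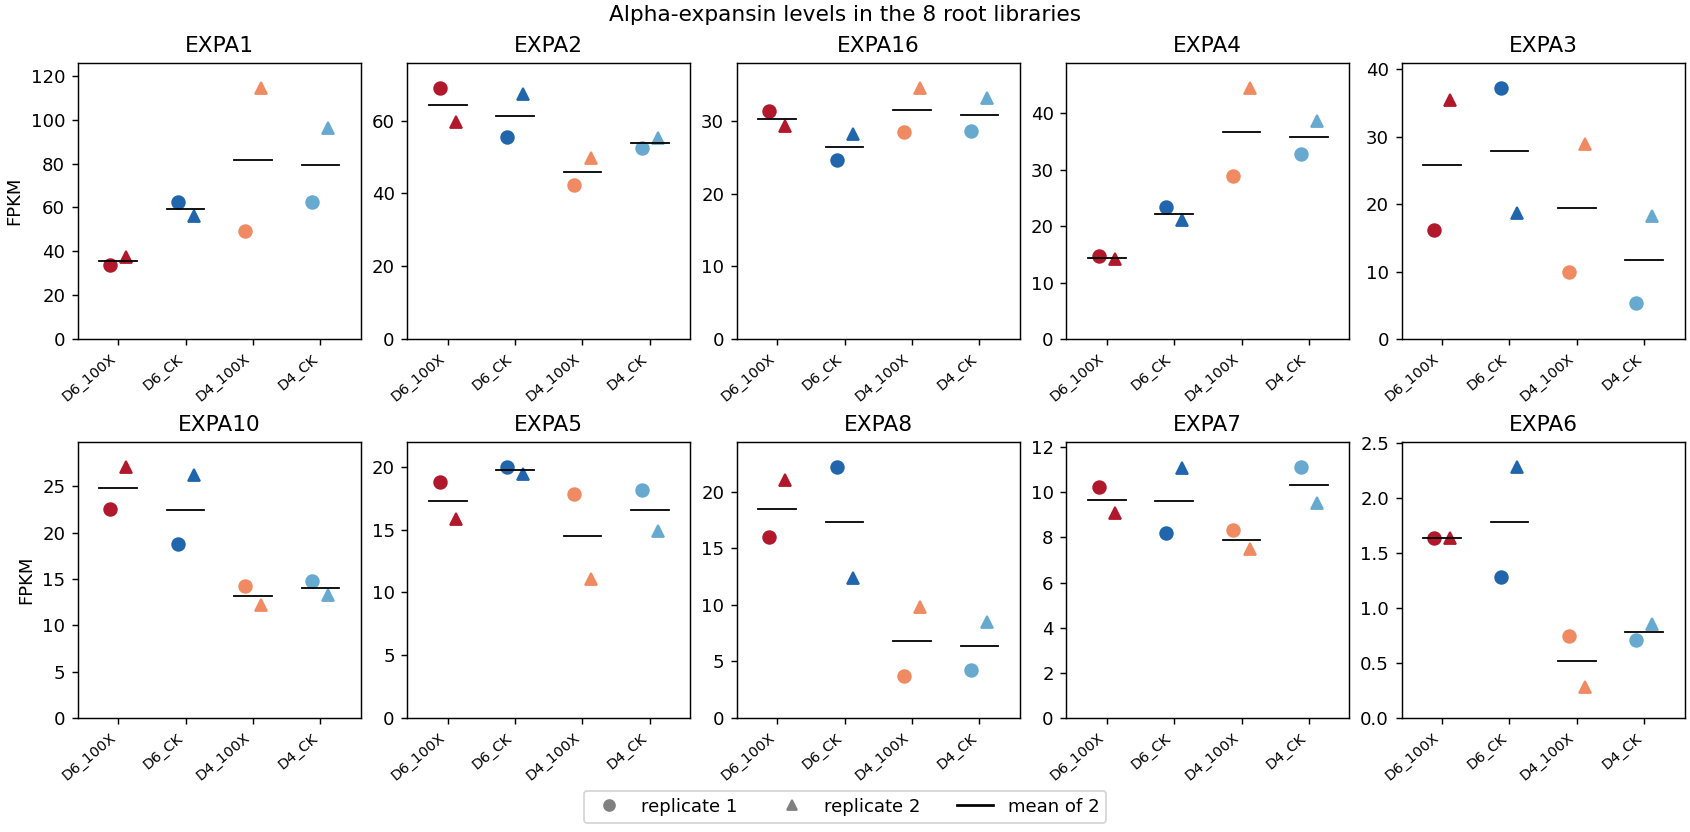
FPKM of each alpha-expansin (vertical axes, each from 0) in the 4 groups; circles are replicate 1, triangles replicate 2 and bars the mean of the 2 libraries. EXPA1 and EXPA4 are lowest in D6_100X, EXPA6, EXPA8 and EXPA10 are lower in the D4 groups than in the D6 groups, and EXPA16 stays between 24.7 and 34.5 FPKM throughout.

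**Figure D3:**
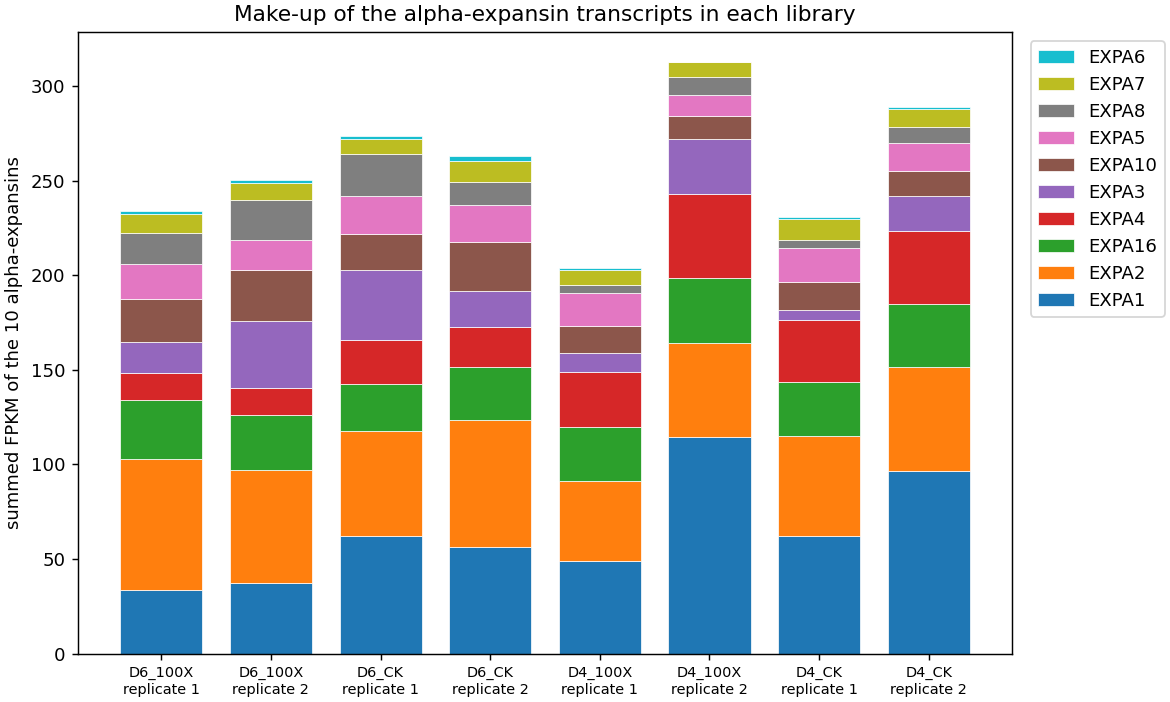
Summed FPKM of the 10 alpha-expansins in each library (vertical axis), with a stacked segment for each gene. The sums run between 204 and 313 FPKM, and the EXPA1 and EXPA4 segments are smallest in the 2 D6_100X libraries.

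Between D6 and D4 the carbon dot roots differed in EXPA10 and EXPA2, which rose, and in EXPA4, which fell. EXPA6 is set apart from the counts between D6 and D4, because it passed the filter on low values only through its D6 libraries, where it is high, and its D4 values were all below 1 FPKM. Of the other 9 members 3 passed. The share of all tested loci that passed in this comparison was 29.8%, of which 14.5% were higher and 15.3% lower, so the members' count stands near the background. The median log2 fold change of the 9 members was 0.28, against -0.04 over all tested loci, and 6 of the 9 were positive, against 46.1% of the loci. At an unadjusted limma p under 0.05 there were 5 of the 9, against 42.3% of the loci, and the groups did not overlap in 6 of the 9, against 68% of the loci.

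EXPA4 stood at 14.6 and 14.1 FPKM in D6_100X, against 28.9 and 44.4 FPKM in D4_100X. Both D6 libraries lay below both D4 libraries, and the difference passed the threshold (log2 fold change -1.26 ± 0.20 SE, limma adjusted p = 0.00519). EXPA10 stood at 22.6 and 27.1 FPKM in D6_100X and at 14.3 and 12.1 FPKM in D4_100X. The groups did not overlap, and the aluminium-inducible gene passed upwards (0.86 ± 0.18 SE, limma adjusted p = 0.0135). EXPA2 stood at 68.9 and 59.6 FPKM in D6_100X and at 42.2 and 49.7 FPKM in D4_100X (0.48 ± 0.14 SE, limma adjusted p = 0.0393). Of these 3, EXPA4 passed whichever library was left out, with adjusted p between 0.00205 and 0.0396, and EXPA10 missed without D4_100X replicate 2 (0.0568) or D6_100X replicate 2 (0.0884). EXPA2 missed without D4_CK replicate 1 (0.0544), D4_CK replicate 2 (0.0541), D4_100X replicate 1 (0.138), D6_100X replicate 1 (0.196) or D6_100X replicate 2 (0.0812), without the filter (0.0617) and with only the compared groups fitted (0.0697).

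EXPA6 stood at 1.64 FPKM in each D6_100X library, from 46 reads each, against 0.748 and 0.285 FPKM in D4_100X, from 21 and 8 reads. The groups did not overlap. Its log2 fold change was 0.82 ± 0.23 SE on the log2(FPKM + 1) scale and 1.78 ± 0.53 SE by voom on the reads. In the filtered fit its limma adjusted p of 0.0373 lay under the threshold, but the filter had admitted it by the direction tested, and without the filter the adjusted p was 0.0571, so it is given as a description and not as a call.

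The root gene EXPA8 had the largest fold change of the 10 in this comparison and did not pass. It stood at 16.0 and 21.0 FPKM in D6_100X, against 3.74 and 9.83 FPKM in D4_100X (log2 fold change 1.43 ± 0.47 SE, limma adjusted p = 0.0618). EXPA1 did not pass either, at 33.8 and 37.4 FPKM in D6_100X and 49.1 and 114 FPKM in D4_100X (-1.06 ± 0.38 SE, limma adjusted p = 0.0787). For both genes the groups did not overlap, and their standard errors of 0.47 and 0.38 compare with 0.13 for EXPA16. Without D4_100X replicate 2 EXPA8 passed upwards (2.03, limma adjusted p = 0.0278), and without D4_100X replicate 1 EXPA1 passed downwards (-1.66, limma adjusted p = 0.0073) and EXPA5 upwards (0.60, limma adjusted p = 0.0414). EXPA3 stood at 16.1 and 35.4 FPKM in D6_100X and at 9.96 and 28.9 FPKM in D4_100X, ranges that overlap. EXPA5, EXPA7 and EXPA16 had log2 fold changes of 0.28, 0.26 and -0.05. For EXPA16 the 95% interval of the fold change ran from -0.36 to 0.26.

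In the controls, D6 and D4 roots were compared in the same way, and 0 of the 9 members other than EXPA6 passed the limma threshold, where 10.1% of all tested loci did. At an unadjusted limma p under 0.05 there were 3 of the 9, EXPA4, EXPA8 and EXPA10, against 27.8% of the loci, and voom, applied to recovered reads, called 0. EXPA4 stood at 23.4 and 21.0 FPKM in D6_CK, against 32.8 and 38.7 FPKM in D4_CK (log2 fold change -0.66 ± 0.20 SE, limma adjusted p = 0.0825). EXPA10 stood at 18.7 and 26.2 FPKM in D6_CK and at 14.8 and 13.3 FPKM in D4_CK (0.63 ± 0.18 SE, limma adjusted p = 0.0735). EXPA8 stood at 22.2 and 12.4 FPKM in D6_CK and at 4.24 and 8.49 FPKM in D4_CK (1.32 ± 0.47 SE, limma adjusted p = 0.127). The groups did not overlap for any of these 3 genes, nor for 5 others, which makes 8 of the 9 members against 59.5% of the tested loci. In the 5 others the nearest libraries of D6_CK and D4_CK had overlapping counting intervals (95%, Poisson). These libraries stood at 62.3 and 62.4 FPKM for EXPA1, 55.4 and 55.3 for EXPA2, and 18.7 and 18.2 for EXPA3. For EXPA5 they stood at 19.4 and 18.2 FPKM, and for EXPA16 at 28.3 and 28.6 FPKM. EXPA7 was the exception, at 8.18 and 11.1 FPKM in D6_CK and 11.1 and 9.53 FPKM in D4_CK. EXPA6 stood at 1.28 and 2.28 FPKM in D6_CK, against 0.713 and 0.855 FPKM in D4_CK, and did not pass (0.62 ± 0.23 SE, limma adjusted p = 0.138). Leaving out either D4_100X library, which is not part of this comparison but shares the estimate of the spread, brought EXPA4 past the threshold (adjusted p = 0.0212 in both cases).

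The sign of the log2 fold change was the same in both treatments for every member except EXPA7. For EXPA4, EXPA6, EXPA8 and EXPA10 the fold changes were -1.26, 0.82, 1.43 and 0.86 with carbon dots. In the controls they were -0.66, 0.62, 1.32 and 0.63. EXPA1, EXPA2, EXPA3, EXPA5 and EXPA16 had -1.06, 0.48, 0.46, 0.28 and -0.05 with carbon dots. Their control values were -0.38, 0.18, 1.31, 0.25 and -0.21. EXPA7 had 0.26 with carbon dots and -0.10 without. The share of all tested loci with the same sign in both is not given here. A gene that passed in the carbon dot roots and not in the controls is not thereby shown to differ between them. The test of that difference is the interaction, which is the same number as the difference between the carbon dot effects at D6 and at D4. None of the 10 members passed it in limma, with 0 of 10 at an unadjusted p under 0.05, against 9.27% of the loci, and 0 by voom. Of all tested loci 0.00877% passed. The smallest adjusted p was 0.569, for EXPA4 (difference -0.60 ± 0.28 SE).

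**Figure D4:**
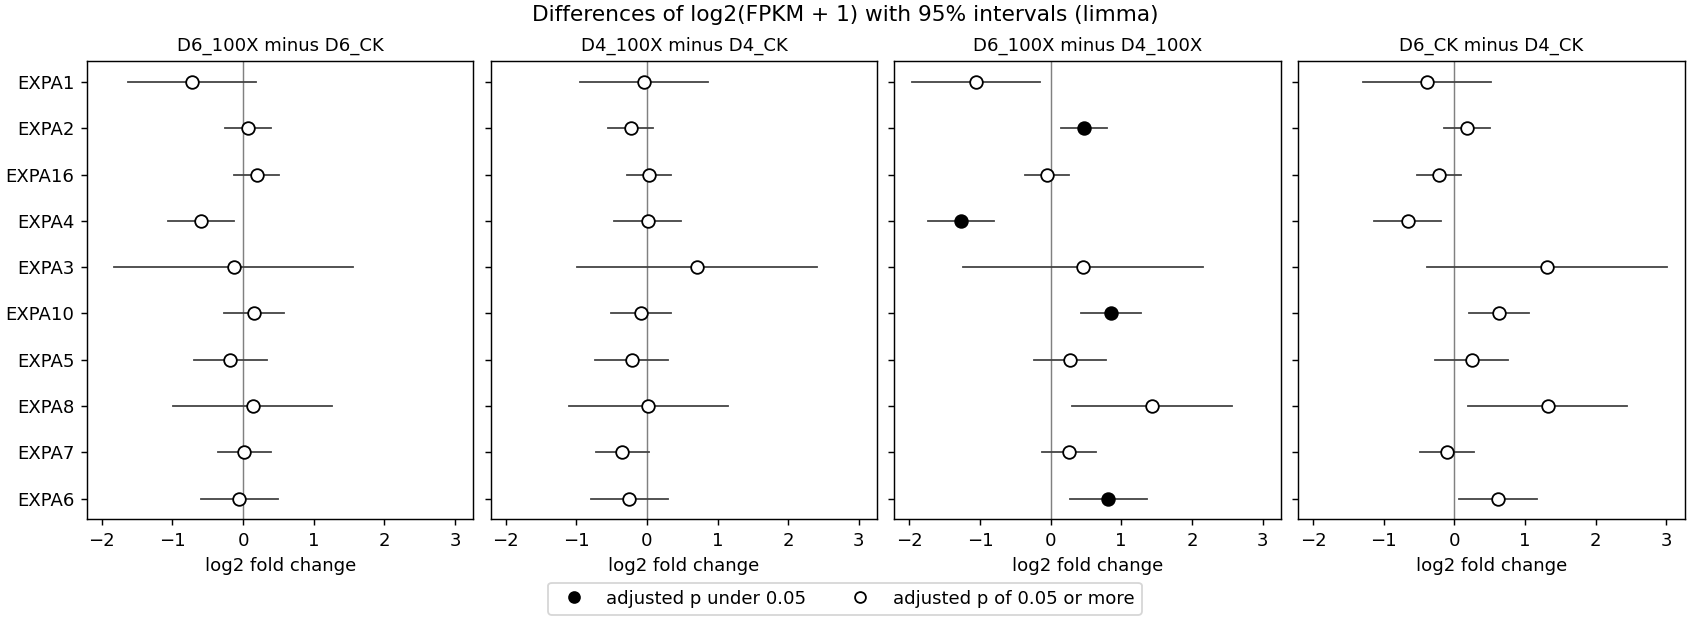
Log2 fold changes of log2(FPKM + 1) for the 10 alpha-expansins in 4 comparisons, with 95% intervals from limma as horizontal lines; filled points passed an adjusted p of 0.05 over all tested loci. EXPA4 lies left of 0 in the D6_100X minus D4_100X panel, EXPA2, EXPA10 and EXPA6, which entered the fit only through D6, lie right of it, and no other panel holds a filled point.

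At D6 the question was which alpha-expansins differed between carbon dot and control roots. EXPA1 and EXPA4 were the members with the lowest fold changes, and neither passed. EXPA1 stood at 33.8 and 37.4 FPKM in D6_100X, against 62.3 and 56.2 FPKM in D6_CK (log2 fold change -0.72 ± 0.38 SE, limma adjusted p = 0.409). EXPA4 stood at 14.6 and 14.1 FPKM in D6_100X, against 23.4 and 21.0 FPKM in D6_CK (-0.59 ± 0.20 SE, limma adjusted p = 0.225). For both genes the carbon dot libraries lay below the control libraries. In all, 0 of the 10 members passed in limma and 0 by voom, where 0.522% of all tested loci passed in limma. At an unadjusted p under 0.05 there was 1 member, EXPA4, against 15.8% of the loci.

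The estimate of the spread is shared with the D4 libraries, in which EXPA1 varied more. Its SD was 2.60 FPKM in D6_100X, 4.29 FPKM in D6_CK, 46.2 FPKM in D4_100X and 24.0 FPKM in D4_CK (n = 2 each). With only the 4 D6 libraries fitted, EXPA1 (limma adjusted p = 0.0359) and EXPA4 (0.0435) passed downwards, where 1.25% of the loci did. With the replicate number as a term within D4, which was chosen after the data were seen, EXPA1 (0.043) and EXPA4 (0.035) passed as well, where 2.54% of the loci did.

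The other 8 members showed no called difference at D6. EXPA16 stood at 31.3 and 29.3 FPKM in D6_100X and 24.7 and 28.3 FPKM in D6_CK, without overlap (0.19 ± 0.13 SE, limma adjusted p = 0.527). EXPA5 stood at 18.8 and 15.8 FPKM in D6_100X and 20.0 and 19.4 FPKM in D6_CK, also without overlap. Members whose D6 groups did not overlap thus numbered 4 of 10, against 57.3% of the tested loci. EXPA2 stood at 68.9 and 59.6 FPKM in D6_100X and 55.4 and 67.3 FPKM in D6_CK. The root tip gene EXPA10 stood at 22.6 and 27.1 FPKM in D6_100X and 18.7 and 26.2 FPKM in D6_CK. EXPA8 stood at 16.0 and 21.0 FPKM in D6_100X and 22.2 and 12.4 FPKM in D6_CK. In these 3 genes the groups overlapped, as they did in EXPA3, EXPA6 and EXPA7. The 95% interval of the D6 effect ran from -0.26 to 0.39 for EXPA2 and from -0.36 to 0.40 for EXPA7, but from -1.83 to 1.56 for EXPA3 and from -0.99 to 1.26 for EXPA8, so an increase of over 1 log2 unit lay within the interval of both. The median log2 fold change of the 10 members was -0.02, the same to 2 decimals as the -0.02 over all tested loci.

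At D4 the carbon dot and control roots were set against each other in the same fit. No member passed in limma or by voom, 0 of 10 had an unadjusted p under 0.05, and 0% of the tested loci passed (1.9% at an unadjusted p under 0.05). The log2 fold changes of the members lay between -0.35 ± 0.16 SE for EXPA7 and 0.71 ± 0.71 SE for EXPA3. EXPA7, the gene known from salt tolerance, stood at 8.31 and 7.49 FPKM in D4_100X, against 11.1 and 9.53 FPKM in D4_CK. EXPA2 stood at 42.2 and 49.7 FPKM in D4_100X, against 52.5 and 55.3 FPKM in D4_CK. These were the 2 members of 10 whose D4 groups did not overlap, against 19.4% of the tested loci. EXPA4 stood at 28.9 and 44.4 FPKM in D4_100X and 32.8 and 38.7 FPKM in D4_CK. EXPA10 stood at 14.3 and 12.1 FPKM in D4_100X and 14.8 and 13.3 FPKM in D4_CK, and EXPA16 at 28.5 and 34.5 FPKM in D4_100X and 28.6 and 33.2 FPKM in D4_CK. In 7 members (EXPA1, EXPA3, EXPA4, EXPA5, EXPA8, EXPA10 and EXPA16) each D4_100X library lay closer to the D4_CK library of its own number than to the other D4_100X library. The share of all tested loci with this pattern was not computed, so the count is a description only. EXPA5 stood at 17.9 and 11.1 FPKM in D4_100X and 18.2 and 14.9 FPKM in D4_CK.

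The likeness of patterns was described by the Pearson correlation of log2(FPKM + 1) over the 8 libraries. These share group and replicate number, so r describes the 8 values and carries no test. EXPA1 and EXPA4 were each other's most similar member (r = 0.92, Spearman rho = 0.905). EXPA6 and EXPA10 formed another such pair (r = 0.94, rho = 0.83), as did EXPA3 and EXPA8 (r = 0.85, rho = 0.81). EXPA4 and EXPA10 ran in opposite directions (r = -0.92). EXPA16 was like no other member, its highest r being 0.42 with EXPA1, but it ran opposite to EXPA5 (r = -0.79). Beyond the family, the loci most like EXPA1 were LOC_Os03g11530 (r = 0.997), LOC_Os10g42830 (r = 0.996) and LOC_Os05g41670 (r = 0.992). The last of these stood at 31.4 and 35.5 FPKM in D6_100X, 48.6 and 45.7 in D6_CK, 45.4 and 83.0 in D4_100X, and 48.4 and 72.5 in D4_CK. The loci most like EXPA2 were LOC_Os12g37920 (r = 0.97), LOC_Os09g13400 (r = 0.966) and LOC_Os04g57154 (r = 0.958), all at 10.99 FPKM or below. The table used here gives these 6 loci no name.

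Other expansins and the cellulose synthases, which make the cellulose of the wall, were measured beside the 10 members. They were listed from recalled identifiers and kept where the RefSeq table holds the symbol at the implied place. That left 9 other alpha-expansins, 10 beta-expansins, 4 expansin-like A genes and 6 cellulose synthase genes of the primary wall. In D6_100X against D4_100X, 5 of the 9 other alpha-expansins fell and 0 rose, against 15.3% of all tested loci lower and 14.5% higher. Their median log2 fold change was -1.50, against -0.04 over all tested loci. The count and the median include EXPA20, whereas EXPA6 was set apart from the members' count. The 5 were EXPA9, EXPA15, EXPA17, EXPA20 and EXPA25. EXPA20 passed the filter only through its D4 libraries, averaging 0.234 ± 0.248 FPKM in D6_100X and 3.02 ± 2.03 FPKM in D4_100X (SD, n = 2 each), and its call is no support for a direction. EXPA17, which is known for root hair growth, averaged 5.45 ± 2.49 FPKM in D6_100X and 58.9 ± 44.5 FPKM in D4_100X (SD, n = 2 each; log2 fold change -3.04 ± 0.65 SE, limma adjusted p = 0.0151). EXPA9, the neighbour of EXPA8 on chromosome 1, averaged 11.5 ± 3.50 FPKM in D6_100X and 34.6 ± 10.6 FPKM in D4_100X (-1.50 ± 0.27 SE, limma adjusted p = 0.00816), while EXPA8 had a positive fold change. Of the beta-expansins 7 were tested, and EXPB2, EXPB3 and EXPB6 fell while 0 rose (median -1.01). All 6 cellulose synthase genes fell (median -1.06), and 0 of the 4 expansin-like genes passed.

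In D6_CK against D4_CK, 0 of the 9 other alpha-expansins passed (median -0.53), where 10.1% of all tested loci did. Of the 7 beta-expansins, EXPB7 rose, averaging 214 ± 34.9 FPKM in D6_CK and 121 ± 4.58 FPKM in D4_CK (SD, n = 2 each; 0.81 ± 0.15 SE, limma adjusted p = 0.0227). The 6 cellulose synthase genes fell in the controls as well (median -0.66). No gene of these lists passed for the carbon dot effect at D6 or at D4. At D6 the fold changes of all 9 other alpha-expansins and all 7 tested beta-expansins were negative, with medians of -0.61 and -0.60. So were those of all 6 cellulose synthase genes (median -0.38), while 3 of the 4 expansin-like genes had positive ones (median 0.22). Among the 10 members 5 were negative (median -0.02), and among all tested loci 53.3%. EXPA17 averaged 5.45 ± 2.49 FPKM in D6_100X and 20.9 ± 5.79 FPKM in D6_CK (SD, n = 2 each; limma adjusted p = 0.261). EXPA12, the most abundant of the other alpha-expansins, averaged 32.9 ± 7.75 FPKM in D6_100X and 35.6 ± 5.59 FPKM in D6_CK. EXPB6, the most abundant beta-expansin, averaged 115 ± 7.19 FPKM in D6_100X and 176 ± 19.5 FPKM in D6_CK, and EXLA1, the most abundant expansin-like gene, averaged 47.7 ± 6.24 FPKM in D6_100X and 33.3 ± 3.86 FPKM in D6_CK. At D4 all 9 other alpha-expansins had positive fold changes (median 0.27), as did 3 of the 7 beta-expansins, 3 of the 4 expansin-like genes, 1 of the 6 cellulose synthase genes, 4 of the 10 members and 46.2% of all tested loci. Comparisons that hold the same libraries, such as D6_100X against D6_CK and against D4_100X, are not independent of each other, and whether the members differ as a set from the other genes was not tested.

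**Figure D5:**
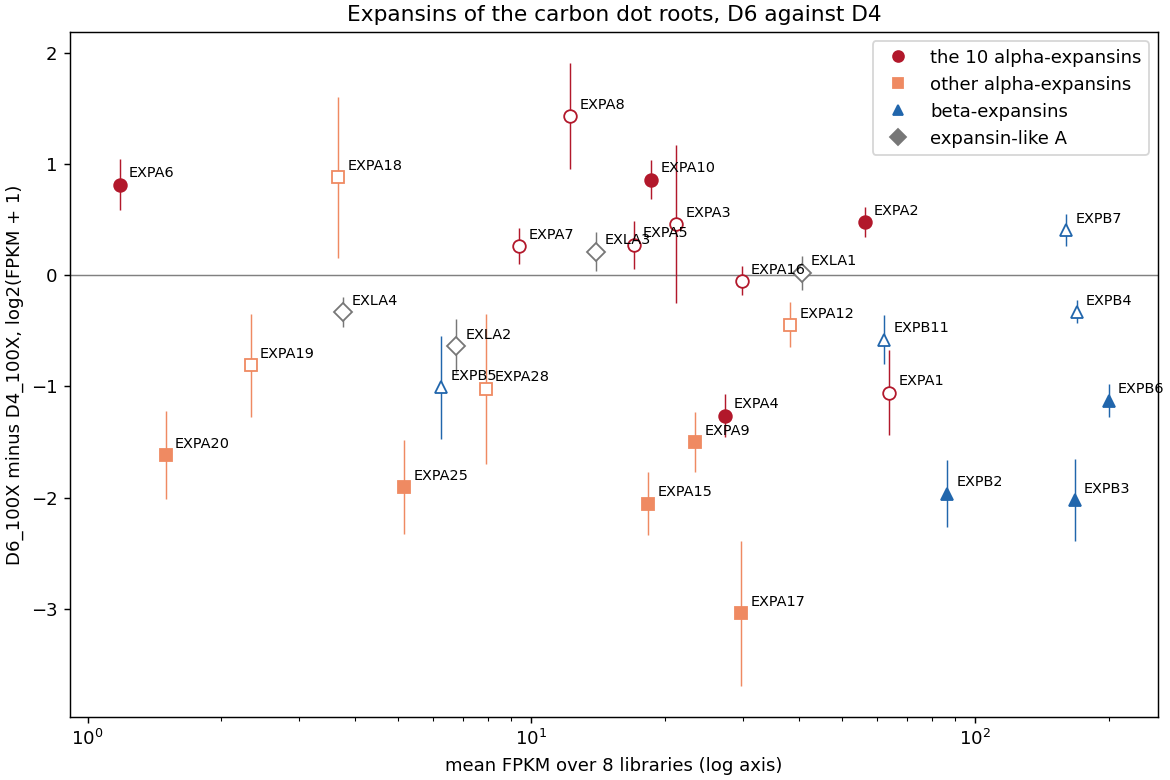
Log2 fold change of D6_100X minus D4_100X with its standard error (vertical axis) against the mean FPKM over the 8 libraries (log axis) for the 10 alpha-expansins and the other tested expansins; filled symbols passed an adjusted p of 0.05. EXPA2, EXPA10 and EXPA6, which entered the fit only through D6 and is not counted as a call, are the filled symbols above 0. EXPA20, filled below 0, entered only through D4. EXPA17 has the lowest fold change of the genes drawn.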

How the data were processed

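Messenger RNA enriched on oligo(dT) beads of 8 root libraries was sequenced. The deposited values are FPKM, computed by the authors for 55801 loci; fastp, HISAT2, SAMtools and featureCounts 1.6.4 are named per the submitters' processing notes, and no settings, build or annotation are given there. From the FPKM, whole reads were recovered for 100% of the 34269 loci above 0 in a library (tolerance 0.005 reads plus a share of 3e-07), and the inferred denominator differed by at most 0.0098% between libraries. Differences were tested on log2(FPKM + 1) with limma 3.58.1 in R 4.3.3 (eBayes, trend option on), with 4 group means fitted together over the 22794 loci at 1 FPKM or more in at least 2 libraries, with 4 residual degrees of freedom. Such fold changes understate the change of low genes. The Benjamini-Hochberg adjustment ran over all tested loci, and the threshold was 0.05. The fit was tested on simulated data with independent noise in each library. Such data lack the deviations that the D4 libraries of the same number share, so the simulation does not cover them.

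The members and lists were chosen with earlier results of these data known. All 10 members are named whatever their result; of the other lists, the highest gene of a class by mean FPKM, genes that passed the comparison described and EXPA17 are given. Symbols were matched to the RefSeq table of assembly ASM3414082v1 by chromosome and by place within 0.1 chromosome lengths (at most 0.0235 for a member), an indirect match. It held none of the symbols tried for 10 proton pump loci, which are not analysed here. The alternatives were a pseudocount of 0.1, no filter, a mean FPKM of at least 5, median centring, robust eBayes, a fit of the compared groups only, voom on the recovered reads, the replicate block and leaving out each library.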

Additional observations from a re-analysis of the deposited data

How the results depend on the processing

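The number of alpha-expansins past the threshold was recomputed under every alternative. For D6_100X against D4_100X it was 4 with EXPA6, which the filter admitted only through D6, and it lay between 1 and 5 when single libraries were left out, at 2 without a filter and at 2 with only the compared groups fitted. For D6_CK against D4_CK it was 0, and 0 to 1 when single libraries were left out. For the carbon dot effect at D6 it was 0, and 2 with only the D6 libraries fitted. It was 0 under every alternative for the carbon dot effect at D4 and for the interaction. Replicate numbers are shared between groups, and the differences between replicates correlated over the tested loci at 0.602 between the D4 groups and at -0.112 between the D6 groups. With the replicate block 0 members passed for either carbon dot effect, the interaction and D6_CK against D4_CK, and 5 passed for D6_100X against D4_100X, EXPA1 being added (adjusted p = 0.0433). With the D6_100X numbers crossed in the block the counts were 0 for both carbon dot effects, the interaction and the controls, and 3 for D6_100X against D4_100X. A replicate term within D4 gave 2 members at D6. It marked replicate 2 of the D4 groups only. Its D6 against D4 comparisons therefore set the D6 mean against the fitted level of D4 replicate 1. This is another quantity than in the main fit, so the counts are not comparable. In that form 3 members passed in the controls (EXPA3 and EXPA8 higher, EXPA4 lower) and 5 in the carbon dot groups (EXPA1 and EXPA8 added, EXPA6 lost). The fold change of EXPA1 in the controls was then 0.0716, and that of EXPA16 in the carbon dot groups 0.0691. The crossed block and the term within D4 were chosen after the data were seen. The D6 against D4 fold changes shifted under the term because of how it was set. The cause of the other changes was not tested.

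Over all loci the counts for D6_100X against D6_CK were 119, between 0 and 231 with single libraries left out, 783 with the D6 libraries only, 1400 with the term within D4, 11 with the block, 11 without a filter, 16 at a pseudocount of 0.1, 168 by voom and 1 with the crossed block. For D6_CK against D4_CK they were 2311, 60 to 2918 with single libraries left out, 1366 with the compared groups only, 1446 without a filter and 4810 with the term within D4. For D6_100X against D4_100X they were 6789 and 2814 to 6777. For the interaction, 2 loci passed, and 0 with single libraries left out, a pseudocount of 0.1, no filter, a mean FPKM of at least 5, voom or either block; the term within D4 gave 100. For the effect at D4 it was 0, and 2 without a filter. The 4810 with the term within D4 came from D6_CK against the fitted replicate 1 level of D4_CK. It is therefore not comparable with the 2311.

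Leaving out single libraries turned the sign of 20 fold changes, none of them past the threshold. At D4 the carbon dot effect ranged from -0.65 to 0.55 for EXPA1, -0.0857 to 1.52 for EXPA3, -0.29 to 0.31 for EXPA4, -0.53 to 0.11 for EXPA5, -0.57 to 0.62 for EXPA8, -0.19 to 0.0269 for EXPA10 and -0.11 to 0.16 for EXPA16. At D6 it ranged from -0.0688 to 0.21 for EXPA2, -0.68 to 0.41 for EXPA3, -0.31 to 0.21 for EXPA6, -0.18 to 0.22 for EXPA7, -0.26 to 0.53 for EXPA8 and -0.0792 to 0.38 for EXPA10. The interaction ranged from -0.29 to 0.35 for EXPA5, -0.0638 to 0.46 for EXPA6 and -0.48 to 0.71 for EXPA8. D6_100X against D4_100X ranged from -0.26 to 1.19 for EXPA3, -0.0476 to 0.60 for EXPA5 and -0.18 to 0.0834 for EXPA16, and D6_CK against D4_CK from -0.30 to 0.0949 for EXPA7. With 2 libraries a group, the signs of these 20 fold changes were not resolved, and those of EXPA6 also rested on few reads.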
